A study of Mus musculus with 9 samples.

Results

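The genes described here are 10 markers of macrophages and monocytes, chosen by symbol: the complement chains C1qa, C1qb and C1qc, the macrophage genes Adgre1, Csf1r, Mrc1, Cd163, Fcgr1 and Mertk, and the monocyte receptor gene Ccr2. All 10 of 10 were found among the 20603 genes of the count table, and all 10 were among the 15613 genes with enough counts to be tested. Messenger RNA came from mouse conjunctiva, the mucous membrane of the eyelids and the eye surface, and each of the 9 libraries pooled the tissue of 3 mice. Unchallenged controls and challenged controls were Vegfr3 fl/fl mice, in 3 libraries each. The challenged knockouts (3 libraries, labelled Vegfr3iLECko) carried in addition Prox1CreERT2, a Cre recombinase that tamoxifen activates in cells using the Prox1 promoter, in this tissue chiefly lymphatic endothelium. All mice were on the C57BL/6j background, and tamoxifen (75 mg/kg) was injected 5 times at week 5 in controls and knockouts alike. At week 6 they were sensitized to OVA (ovalbumin, 250 µg) given together with aluminum hydroxide (5 mg) and pertussis toxin (0.3 µg). Challenged mice then had OVA drops (250 µg in 5 µL) placed on the right eye every day for 28 days, starting 14 days later. Saline was given to the other eye, and the labels do not say which eye or which animals gave the unchallenged pools. Nor do they say what a library number marks, so p-values measure the spread between pools.

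Macrophages of a mucosa are partly long-lived residents and partly descendants of blood monocytes, which enter through the chemokine receptor CCR2 and mature under CSF1, the ligand of the receptor that Csf1r encodes. They take up dying cells, haemoglobin complexes and antibody-coated particles through receptors such as MERTK, CD163, the mannose receptor CD206 (Mrc1) and the high-affinity IgG receptor CD64 (Fcgr1). They are also the main source of C1q, which starts the classical complement pathway on antibody and on dying cells. Some of these genes are used by other cells as well: Mrc1 by lymphatic endothelium, Ccr2 by T cells and Csf1r by some dendritic cells.

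Libraries held 16490050 to 24746836 counts, and levels below are CPM, counts scaled by TMM to a common library size. Flt4, the gene of Vegfr3, was at 13.5 to 26.8 CPM in unchallenged controls, 13.4 to 20.3 CPM in challenged controls and 5.07 to 12.96 CPM in challenged knockouts. Its genotype difference was -1.20 on the log2 scale (SE 0.40, edgeR adjusted p = 0.468), which did not pass, although every knockout library lay below every challenged control. For knockout 1 (12.96 CPM) the gap to challenged control 1 (13.36 CPM) was narrow, while knockouts 2 and 3 were at 5.07 and 5.32 CPM. Knockout 1 was also the highest of its group in 8 of the markers described here. Whether its Flt4 level had a part in this was not tested. Epithelial markers of conjunctiva summed to between 15826 and 32117 CPM, with none of 8 at 0. Markers of other cells also differed in level between the groups. Ptprc, the pan-leukocyte gene CD45, was at 30.2 ± 22.1 CPM in unchallenged controls, 111 ± 92.1 CPM in challenged controls and 29.7 ± 15.1 CPM in challenged knockouts (SD, n = 3), and passed with challenge only under the block described below (edgeR adjusted p = 0.0102, against 0.257). Under the block over all 9 libraries Ptprc was also lower with genotype (log2 -1.72, edgeR adjusted p = 0.0354). The 9 T cell markers summed to 14.7 to 25.6, 87.8 to 192 and 27.2 to 36.5 CPM in the same order, and the 8 skeletal muscle markers to 1062 to 3514, 233.5 to 643 and 1476 to 1788 CPM, with none at 0 in any group. With challenge, an unadjusted p under 0.05 was found in 9 of 9 T cell genes (of which Lck and Cd8a passed), 2 of 3 B cell, 3 of 9 dendritic cell and 1 of 5 neutrophil genes, all higher, and in 8 of 8 skeletal muscle, 5 of 5 fat cell and 3 of 7 blood endothelial genes, all lower. In the mast cell, epithelial, lymphatic, fibroblast and red cell lists there were 0. Over all 15613 genes tested, 1057 were higher and 882 lower at that p. The part of these other cells in the differences below was not tested.

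Challenged controls had the highest group mean of 9 of the 10 markers, and Cd163 was the exception. The markers together were at 755, 628 and 463 CPM in unchallenged controls 1 to 3, at 1110, 923 and 581 CPM in challenged controls 1 to 3, and at 758, 488 and 536 CPM in challenged knockouts 1 to 3. The summed level of challenged control 3 thus lay below that of unchallenged controls 1 and 2. Fewer cells of a type and less RNA per cell cannot be told apart in such bulk tissue.

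With challenge in controls, the fitted log2 fold change was above 0 for 9 of 10 markers, as for 48.5% of all genes tested, with a median of 0.49 against -0.01 over all genes. None of the 10 passed an adjusted p of 0.05 by edgeR's quasi-likelihood test, in which 0.064% of genes passed. At an unadjusted p under 0.05 there were 5 markers, all higher (C1qa, C1qb, C1qc, Adgre1 and Fcgr1), against 6.77% of all genes. With 1 library left out, that count ran from 2 (C1qa and Fcgr1, without challenged control 1 or unchallenged control 3) to 6 (without unchallenged control 1), and it was 3 without unchallenged control 2. The median ran from 0.31 without challenged control 1 to 0.76 without challenged control 3. For 3 markers (C1qa, C1qc and Fcgr1) every challenged control lay above every unchallenged control, which was so for 7.21% of all genes. DESeq2 called 1 marker, Fcgr1, and 4.94% of genes. Same-numbered libraries of these 2 groups deviated together, and a fit with the library number as a block also called Fcgr1 alone, beside 1.71% of genes. With the block in only these 2 groups, 3 markers passed (C1qb, Adgre1 and Fcgr1) and 3.12% of genes did.

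With genotype under challenge, all 10 markers had a fitted log2 fold change below 0, as did 49.6% of all genes tested, with a median of -0.62 against 0.00 over all genes. By edgeR 0% of genes passed, the markers included. The markers with an unadjusted p under 0.05 were 4, all lower (C1qb, C1qc, Adgre1 and Fcgr1), against 4.53% of all genes. With 1 library left out, that count ran from 0 (without challenged control 1 or knockout 2) to 5 (without challenged control 3 or knockout 1), and it was 2 without unchallenged control 2, challenged control 2 or knockout 3. The median ran from -0.91 without knockout 1 to -0.34 without challenged control 1, and 9 of 10 values were below 0 without challenged control 2 or knockout 2. In 2 markers, C1qa and C1qc, every knockout lay below every challenged control, as in 6.24% of all genes. DESeq2 called 0 of the 10 markers and 1.49% of genes. Genes of other cells differed beside the markers: at an unadjusted p under 0.05, 9 of 9 T cell, 2 of 3 B cell, 2 of 9 dendritic cell and 1 of 5 neutrophil genes were lower, and 7 of 8 skeletal muscle, 2 of 5 fat cell and 1 of 7 blood endothelial genes were higher, with 1 of 7 lymphatic genes each way and 0 in the other lists. None of these passed by edgeR, while DESeq2 called 8 T cell, 2 B cell and 1 dendritic cell genes lower and 6 skeletal muscle genes higher. Over all 15613 genes tested, 708 were lower and 617 higher with genotype at an unadjusted p under 0.05. This comparison and the previous one use the same challenged controls, so that a high value there enters both with opposite sign. Between challenged knockouts and unchallenged controls, fitted differences of the markers ran from -0.34 (Csf1r) to 0.53 (Fcgr1), 4 above and 6 below 0 (50.7% of all genes were above). In that comparison 0 markers passed by edgeR (0% of genes) or DESeq2 (0.09% of genes) or had an unadjusted p under 0.05 (2.9% of genes did), and in 0 of the 10 were the groups apart (6.59% of genes).

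**Figure D1:**
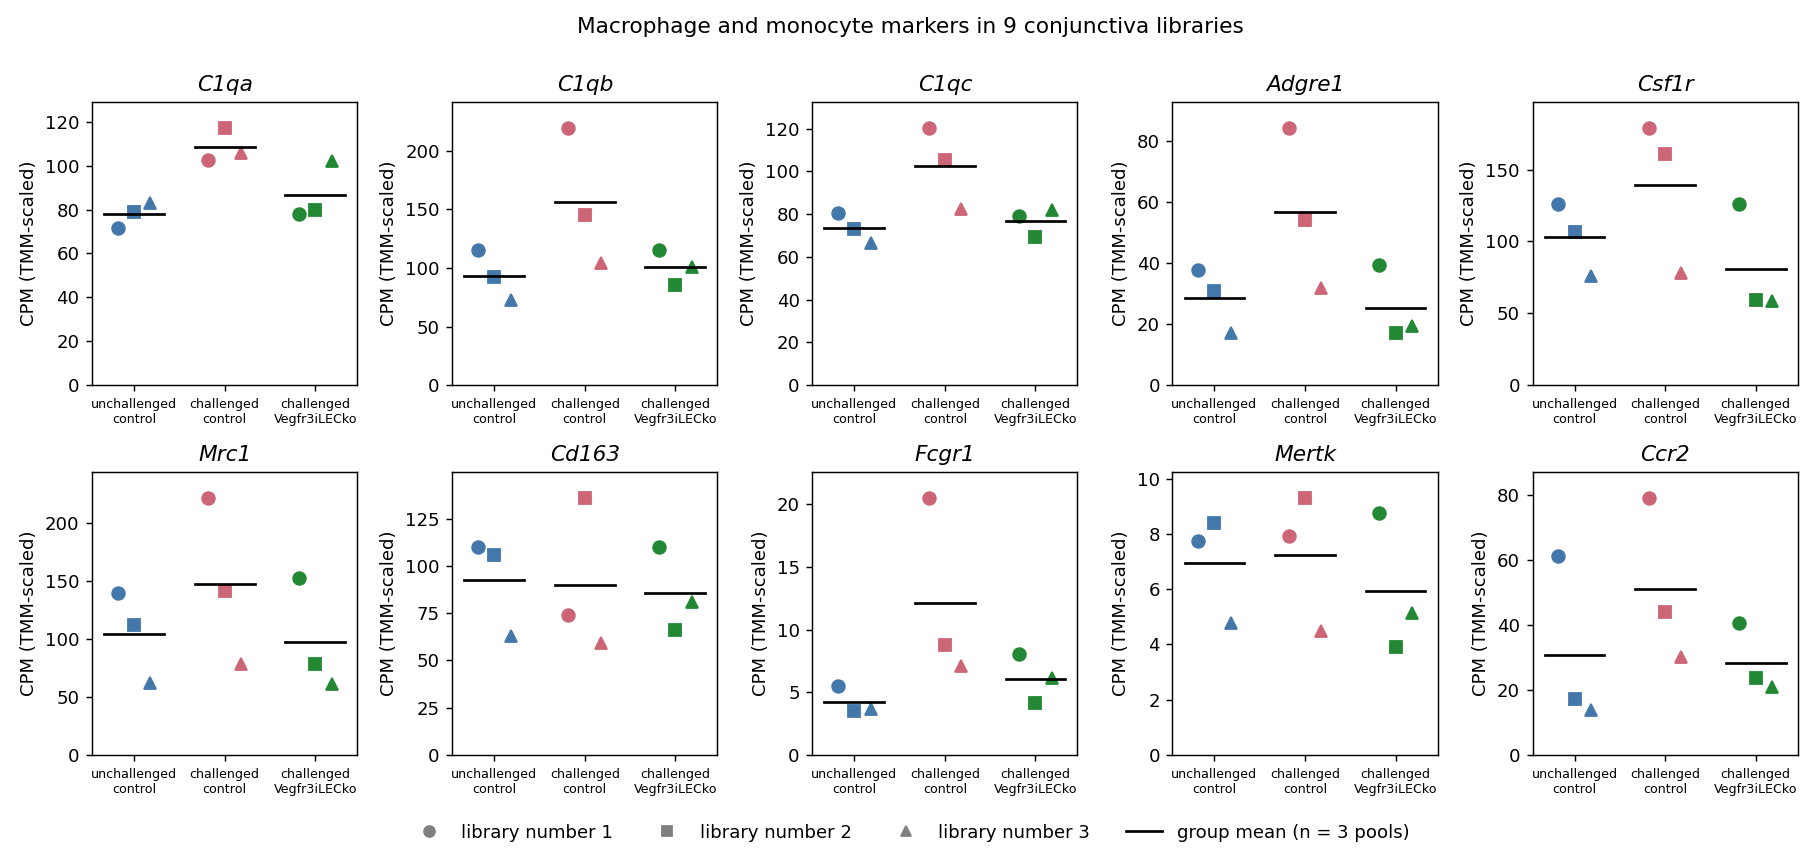
Level of each of the 10 markers (y axis, TMM-scaled CPM from 0) in the 3 groups (x axis). Each point is 1 library of 3 pooled mice, its shape gives the library number and the bar is the group mean; C1qa, C1qc and Fcgr1 are the panels in which all 3 challenged controls lie above all 3 unchallenged controls.

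**Figure D2:**
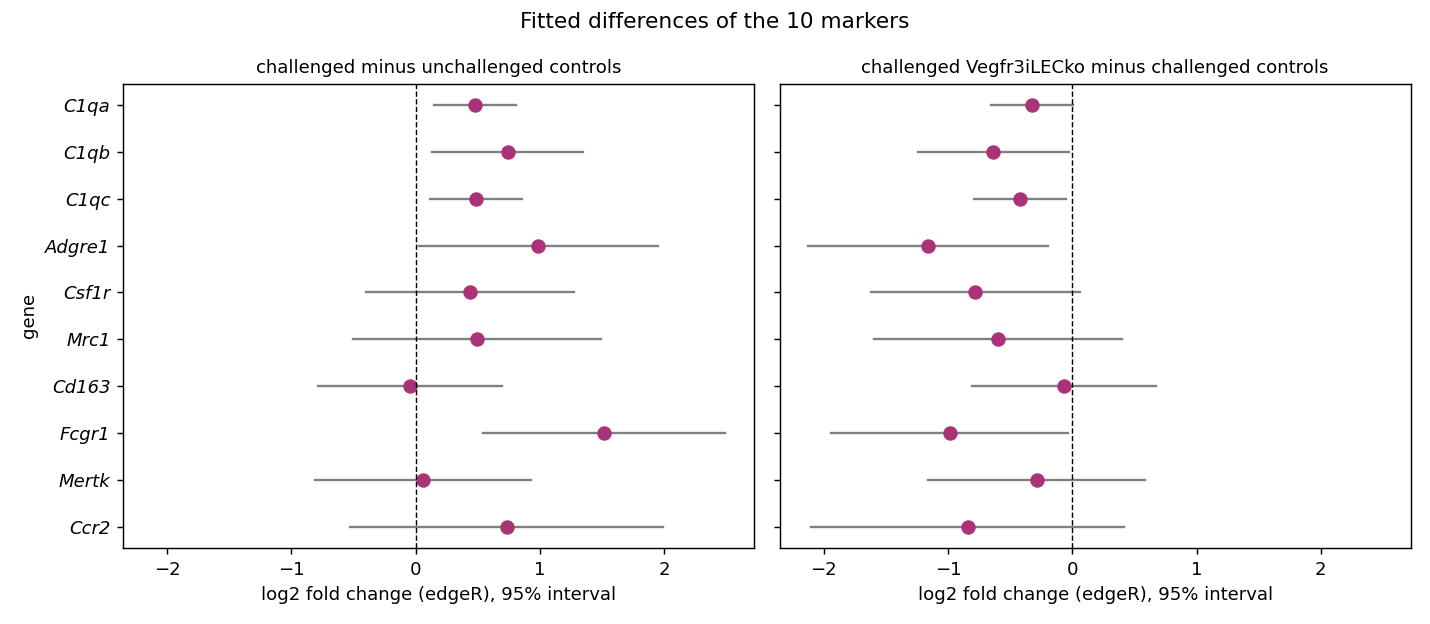
Fitted log2 fold change (x axis) of each marker (y axis) with challenge in controls (left) and with genotype under challenge (right); points are estimates and lines 95% intervals of a single test, unadjusted. Fcgr1 had the largest difference with challenge (1.52) and Adgre1 with genotype (-1.16), and both panels use the same challenged controls.

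Set against exon length (GENCODE M21, since the annotation used for counting is not given), the C1q chains stood above the receptors in unchallenged controls. C1qb was at 85.9 ± 19.6, C1qa at 74.8 ± 5.47 and C1qc at 60.9 ± 5.70 CPM per kilobase (SD, n = 3). The library ranges of C1qa and C1qb overlapped, and C1qc lay just below both, its highest library (66.77) against the lowest of C1qb (66.83 CPM per kilobase). Csf1r (21.04 ± 5.12), Cd163 (20.7 ± 5.79) and Mrc1 (19.5 ± 7.37 CPM per kilobase) formed the next tier, within their spread of each other. Below them came Adgre1 at 8.82 ± 3.26 and Ccr2 at 4.55 ± 3.91 CPM per kilobase, with overlapping ranges, and the highest Adgre1 library reached the lowest of Mrc1. Fcgr1 (1.63 ± 0.424) and Mertk (1.62 ± 0.447 CPM per kilobase) were lowest, within their spread of each other.

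C1q is assembled from equal numbers of A, B and C chains, each encoded by its own gene in a tight cluster on mouse chromosome 4. C1qa, the A chain gene, stood at 71.7, 78.8 and 82.9 CPM in unchallenged controls, 103, 117 and 106 CPM in challenged controls and 77.9, 80.0 and 102 CPM in challenged knockouts. The challenged controls were above every library of the 2 other groups, but only just above knockout 3. Its log2 fold change was 0.48 with challenge (SE 0.15, adjusted p = 0.201) and -0.32 with genotype (SE 0.15, adjusted p = 0.601). C1qc, the C chain gene, was at 80.3, 73.0 and 66.6 CPM, then 120, 105 and 82.4 CPM, then 79.1, 69.5 and 81.7 CPM in the same groups. Challenged control 3 was the lowest of its group and lay within 1 CPM of knockout 3. For C1qc the log2 fold change was 0.49 with challenge (SE 0.17, adjusted p = 0.238) and -0.42 with genotype (SE 0.17, adjusted p = 0.533).

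C1qb, the B chain gene, varied more among the challenged controls. Its level was 115, 92.3 and 72.7 CPM in unchallenged controls, 220, 145 and 104 CPM in challenged controls, and 115, 85.6 and 100 CPM in challenged knockouts. Challenged control 1 was the highest of all 9 libraries, and challenged control 3 lay below unchallenged control 1. The log2 fold change of C1qb was 0.74 with challenge (SE 0.27, adjusted p = 0.283, and 0.0452 with the block in these 2 groups), and 0.42 without challenged control 1. The genotype difference was -0.64 (SE 0.27, adjusted p = 0.569), and -0.31 without challenged control 1.

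Because the chains were high and low in much the same groups, the sequences around the starts of C1qc and C1qb are shown. They come from RefSeq on GRCm38.p6, another build than the mm39 of the counts. Each runs from 250 bases before the gene's start to 50 after it. C1qc is at chr4:136892865-136893164 and C1qb at chr4:136886151-136886450, both on the minus strand and printed 5′ to 3′ along the gene. Capitals mark GAGGAA on either strand, the core letters of the PU box bound by PU.1, the myeloid transcription factor that Spi1 encodes, and in C1qc the longer GAGGAAGT of which it is part.
C1qc: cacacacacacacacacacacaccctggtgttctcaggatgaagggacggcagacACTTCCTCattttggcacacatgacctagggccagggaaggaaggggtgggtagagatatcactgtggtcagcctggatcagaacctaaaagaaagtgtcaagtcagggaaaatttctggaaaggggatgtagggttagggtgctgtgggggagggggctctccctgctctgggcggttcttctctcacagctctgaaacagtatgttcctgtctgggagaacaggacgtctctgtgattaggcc
C1qb: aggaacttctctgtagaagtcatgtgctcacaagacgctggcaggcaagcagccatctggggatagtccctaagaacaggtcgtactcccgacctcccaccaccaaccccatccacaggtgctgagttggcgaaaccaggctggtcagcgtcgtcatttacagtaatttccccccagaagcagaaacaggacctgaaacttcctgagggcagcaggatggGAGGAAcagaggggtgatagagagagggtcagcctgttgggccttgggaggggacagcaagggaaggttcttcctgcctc
In C1qc the letters GAGGAAGT lay 195 to 188 bases before the start on the opposite strand, and in C1qb GAGGAA lay 30 to 25 bases before it. GAGGAA was in 28.3% and GAGGAAGT in 3.20% of the 32851 promoters of that table. Of the 10 markers 7 were in the table; GAGGAA was in 4 of these 7 (C1qb, C1qc, Fcgr1 and Mrc1) and GAGGAAGT in 1. These are matches of letters, with no binding measured.

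The proportions of the C1q chains differed by library number within every group. The log2 ratio of C1qa to C1qb was -0.69, -0.23 and 0.19 in unchallenged controls 1 to 3. In challenged controls 1 to 3 it was -1.10, -0.31 and 0.02, and in challenged knockouts 1 to 3 it was -0.57, -0.10 and 0.02. Library 1 thus had the least C1qa per C1qb in each group and library 3 the most. The ratio of C1qc to C1qb had library 1 lowest in each group too (-0.52, -0.87 and -0.55) and library 3 highest (-0.13, -0.34 and -0.30). As group means, C1qa to C1qb was at -0.24 ± 0.44, -0.46 ± 0.58 and -0.21 ± 0.31 (SD, n = 3). Between same-numbered control libraries, both chain ratios were lower in the challenged library in 3 of 3 pairs, by less than the distance between libraries 1 and 3 within either control group, and this was not tested. The same numbers separated other markers. In library 1 of every group C1qb, Adgre1, Csf1r, Mrc1, Fcgr1 and Ccr2 were highest and C1qa was lowest. Relative to the mean of the C1q chains, Mrc1 was at 0.68, 0.67 and 0.77 in the 3 libraries numbered 1 and at -0.25, -0.30 and -0.62 in those numbered 3. The neutrophil markers also had their highest sum in library 1 of each group (97.9, 413 and 274 CPM), as did Ptprc, while the epithelial markers had their lowest there (15826, 15867 and 16590 CPM). The part of these in the ratios was not tested.

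**Figure D3:**
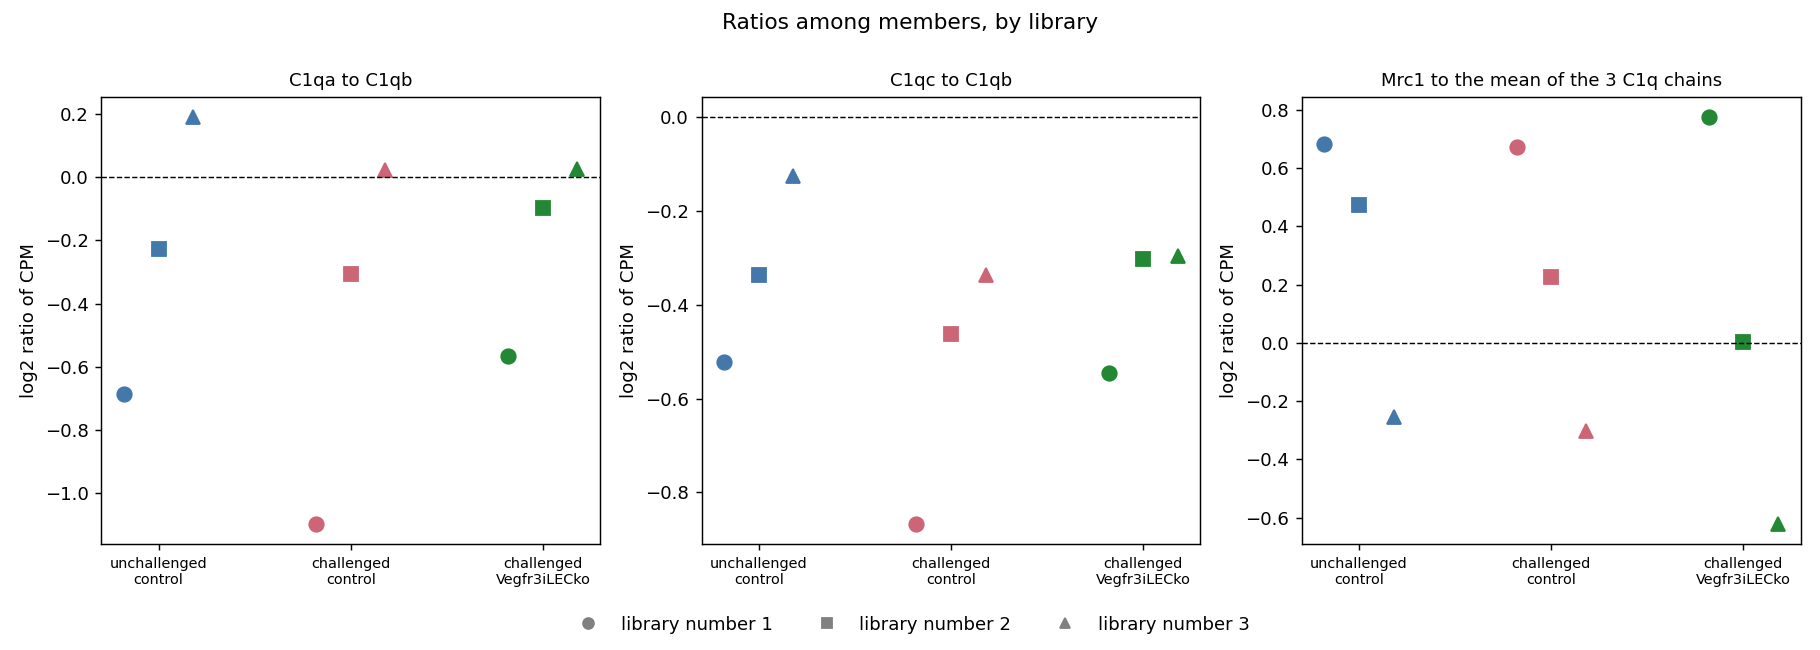
Log2 ratio of CPM (y axis) of C1qa to C1qb, C1qc to C1qb and Mrc1 to the mean of the C1q chains, by group (x axis), with 1 point per library and its shape giving the library number. In each group library 1 is lowest in both chain ratios and highest in the Mrc1 ratio.

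Fcgr1 had the largest difference with challenge of the 10 markers. It encodes CD64, which binds monomeric IgG with high affinity and is known to be induced by interferon gamma. Its level was 5.49, 3.52 and 3.67 CPM in unchallenged controls, 20.5, 8.78 and 7.07 CPM in challenged controls, and 8.02, 4.13 and 6.12 CPM in challenged knockouts. All challenged controls were above all unchallenged controls, with challenged control 1 far above the other two, and knockout 1 lay above challenged control 3. With challenge the log2 fold change was 1.52 (SE 0.44, adjusted p = 0.178), a fitted 2.86-fold, and the call changed with the test: the adjusted p was 0.0476 with the library number as a block, 0.0496 with the block in these 2 groups and 0.0194 by DESeq2. Without challenged control 1 it was 0.91. Under challenge, knockouts differed by -0.99 (SE 0.43, adjusted p = 0.573), and -0.38 without challenged control 1. Fcgr1 also differed in proportion: its log2 ratio to the C1q mean was -3.99, -4.52 and -4.33 in unchallenged controls, against -2.76, -3.79 and -3.77 in challenged controls and -3.48, -4.24 and -3.95 in knockouts. These ratios did not overlap between the 2 control groups, while those of the knockouts overlapped with both.

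The promoter of Fcgr1 is shown since an interferon-responsive element is known to lie close to the start of this gene. It is at chr3:96293920-96294219, minus strand, in the same RefSeq table and layout. Capitals mark GAGGAA on either strand and TTCNNNGAA, the letters of a gamma-activated site (GAS).
Fcgr1: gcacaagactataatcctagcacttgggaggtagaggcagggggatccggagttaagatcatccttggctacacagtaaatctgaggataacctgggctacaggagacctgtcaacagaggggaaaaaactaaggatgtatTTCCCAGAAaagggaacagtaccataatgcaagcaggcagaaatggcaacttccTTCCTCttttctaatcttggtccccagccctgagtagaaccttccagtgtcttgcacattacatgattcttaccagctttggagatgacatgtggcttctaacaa
TTCNNNGAA lay 109 to 101 bases before the start and GAGGAA 55 to 50 bases before it, on the opposite strand, with no overlap. TTCNNNGAA was in 8.30% of all promoters of the table and in 1 of the 7 markers there, Fcgr1.

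Most other Fc receptor genes had values on the same side as Fcgr1. Of 6 in the list, 0 passed by edgeR in any comparison, 5 had an unadjusted p under 0.05 with challenge, all higher, and the list median was 1.01. Fcgr2b, the inhibitory IgG receptor, and Fcgr3, an activating one, passed with the block over all 9 libraries (adjusted p = 0.0217 and 0.0414) and were named after their values were seen. Fcgr2b was at 38.2 ± 17.4, 98.6 ± 68.3 and 46.4 ± 24.1 CPM in unchallenged controls, challenged controls and knockouts (SD, n = 3). Fcgr3 was at 24.1 ± 8.41, 55.3 ± 29.1 and 31.0 ± 8.16 CPM. Reads of these similar receptor genes may have been split between them. The 2 most abundant of the list were Fcgrt, the neonatal Fc receptor that recycles IgG (94.7 ± 9.001, 78.5 ± 13.3 and 77.1 ± 3.28 CPM), and Syk, a kinase downstream of Fc receptors (55.7 ± 7.03, 79.3 ± 14.0 and 62.2 ± 9.44 CPM). With genotype all 6 had values below 0, with a median of -0.69 and 0 at an unadjusted p under 0.05.

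Adgre1 encodes F4/80, the classical surface marker of mouse macrophages, and had the widest difference with genotype. Its levels were 37.8, 30.8 and 17.1 CPM in unchallenged controls, 84.2, 54.1 and 31.8 CPM in challenged controls, and 39.3, 17.2 and 19.5 CPM in challenged knockouts. Challenged controls 1 and 2 were above all other libraries, and challenged control 3 lay within the range of both other groups. The log2 fold change was 0.99 with challenge (SE 0.43, adjusted p = 0.386, and 0.0234 with the block in these 2 groups), and 0.59 without challenged control 1. Its genotype difference was -1.16 (SE 0.43, adjusted p = 0.509), and -0.76 without challenged control 1.

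Csf1r, the receptor on which most tissue macrophages depend for survival, differed less. Its levels were 126, 106 and 76.2 CPM in unchallenged controls, 179, 161 and 78.1 CPM in challenged controls, and 126, 59.2 and 58.2 CPM in challenged knockouts. The low library of the challenged controls, number 3, was about level with unchallenged control 3, and the high knockout, number 1, matched unchallenged control 1. The log2 fold change was 0.44 with challenge (SE 0.38, adjusted p = 0.742), with 0.22 without challenged control 1 and 0.73 without challenged control 3. For genotype the value was -0.78 (SE 0.38, adjusted p = 0.621), and -1.24 without knockout 1. Its ligand gene Csf1 was at 57.7 ± 4.43, 81.3 ± 39.6 and 52.5 ± 12.54 CPM across the 3 groups (SD, n = 3), the challenged value resting on challenged control 1 (127 CPM, against 61.4 and 55.6 CPM). Il34, the other CSF1 receptor ligand, was at 4.33 ± 0.764, 4.47 ± 1.12 and 3.14 ± 0.548 CPM and was named outside the rule. Csf2rb, the shared chain of the receptors for GM-CSF, IL-3 and IL-5, was at 9.34 ± 4.28, 58.4 ± 71.8 and 15.8 ± 12.53 CPM, its challenged value again resting on challenged control 1 (141 CPM, against 20.6 and 13.3 CPM). The list drawn from here is wider than CSF1: beside Csf1 and Il34 it holds the GM-CSF and G-CSF genes Csf2ra, Csf2rb, Csf3 and Csf3r. Of these 6 tested genes, 0 passed by edgeR. At an unadjusted p under 0.05, 3 were higher with challenge and 2 lower with genotype.

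Genes shared by macrophages and other myeloid cells lay on the same side as Adgre1. Of 16 tested, all 16 had a log2 fold change above 0 with challenge (median 1.02, range 0.16 to 2.12) and below 0 with genotype (median -0.73, range -1.48 to -0.09). None passed by edgeR, with 9 at an unadjusted p under 0.05 with challenge and 6 with genotype, and DESeq2 called 4 with challenge. Genes that rose with challenge under the block included Ctss, Cybb, Laptm5, Spi1 and Tyrobp, named here after their values were seen. Spi1 was at 13.4 ± 4.29, 28.2 ± 13.6 and 18.3 ± 6.31 CPM across the 3 groups (SD, n = 3; adjusted p = 0.261, and 0.0355 with the block). Tyrobp, the signalling adaptor DAP12, was at 13.2 ± 3.99, 25.8 ± 7.55 and 19.4 ± 4.97 CPM (adjusted p of 0.208, or 0.0411 under the block). The 2 most abundant were Lyz2, lysozyme (364 ± 159, 551 ± 173 and 338 ± 113 CPM), and Lgmn, a lysosomal protease (104 ± 6.61, 124 ± 16.8 and 110 ± 13.1 CPM).

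Mrc1 encodes a scavenger receptor of resident macrophages and did not pass in either comparison. Mrc1 had 140, 112 and 61.8 CPM in unchallenged controls, 222, 142 and 78.4 CPM in challenged controls, and 153, 78.1 and 61.3 CPM in challenged knockouts. The spread by library number was wider than that between groups. Its log2 fold change was 0.50 with challenge (SE 0.45, adjusted p = 0.764), with 0.08 without challenged control 1 and 0.80 without challenged control 3. The value for genotype was -0.60 (SE 0.45, adjusted p = 0.739), with -0.18 without challenged control 1 and -1.08 without knockout 1. The lymphatic endothelial markers, of cells that also use Mrc1, summed to 399 to 511, 391 to 453 and 375 to 461 CPM in the 3 groups, with none of 7 at 0. The most abundant were Pdpn and Lyve1, and Lyve1 is also in the list of resident macrophage genes. The sum is thus not a measure of lymphatic cells alone, and the part of these cells in Mrc1 was not tested.

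Cd163, the receptor for haemoglobin bound to haptoglobin, was the only marker below 0 with challenge. Its levels were 110, 106 and 62.9 CPM in unchallenged controls, 73.9, 136 and 59.4 CPM in challenged controls, and 110, 66.4 and 81.1 CPM in challenged knockouts. Challenged control 1, highest of its group in 7 markers, was here below unchallenged controls 1 and 2. The log2 fold change was -0.05 with challenge (SE 0.33, adjusted p = 0.988), with a 95% interval from -0.79 to 0.70, and it was above 0 without any 1 of 4 libraries (0.18 without challenged control 3). Between genotypes it was -0.07 (SE 0.33, adjusted p = 0.963), with an interval from -0.81 to 0.68 and a value of 0.37 without challenged control 2. Per C1q, Cd163 was at 0.33, 0.38 and -0.23 on the log2 scale in unchallenged controls and at -0.92, 0.17 and -0.70 in challenged controls. The ranges overlapped, while the challenged library was the lower in 3 of 3 same-numbered pairs, which was not tested.

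The level of Mertk, a receptor tyrosine kinase for the uptake of dying cells, was 7.74, 8.39 and 4.78 CPM in unchallenged controls, 7.92, 9.32 and 4.51 CPM in challenged controls and 8.76, 3.89 and 5.15 CPM in challenged knockouts. The ranges of the 2 control groups were close to each other. Its log2 fold change was 0.06 with challenge (SE 0.39, adjusted p = 0.988; 95% interval -0.81 to 0.93), and -0.18 without challenged control 2. The genotype value was -0.29 (SE 0.39, adjusted p = 0.844), with -0.68 without knockout 1 and -0.06 without challenged control 2 or knockout 2.

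Other genes of resident macrophages showed no common direction with challenge. Of 18 tested, 7 were above and 11 below 0 with challenge (median -0.07), 2 had an unadjusted p under 0.05, both higher, and 0 passed by edgeR; Ms4a7, a macrophage membrane protein named for this, passed with the block. DESeq2 called 1. With genotype 13 of the 18 were below and 5 above 0 (median -0.25), with 1 gene lower at an unadjusted p under 0.05. Cbr2, a carbonyl reductase, was at 3627 ± 1317, 2851 ± 392 and 3630 ± 560 CPM across the 3 groups (SD, n = 3), and Selenop, the selenium carrier, at 477 ± 112, 475 ± 121 and 399 ± 120 CPM. Cbr2 alone stood above the 10 markers summed (means of 615, 871 and 594 CPM), and which cells made it was not tested. The partners of MERTK in the uptake of dying cells had a median of -0.20 with challenge, with 4 of 14 above 0, 2 lower at an unadjusted p under 0.05 and 0 past the edgeR threshold (1 lower by DESeq2). Their most abundant members were Lrp1, an endocytic receptor (678 ± 199, 569 ± 144 and 516 ± 215 CPM), and Gas6, a ligand of MERTK (402 ± 92.4, 338 ± 145 and 378 ± 38.0 CPM). Levels of Axl, the related receptor kinase, were 374, 426 and 468 CPM in the unchallenged libraries and 271, 314 and 317 CPM in challenged controls, groups that did not overlap (log2 -0.49, SE 0.15, adjusted p = 0.208). Such a gap on the lower side was found in 1327 of the 15613 genes tested, and in 1 of the 14 partners of MERTK. Axl was named after its values were seen. Partners of CD163 in haemoglobin and iron handling had a median of 0.11 with challenge and 0.02 with genotype, with 0 of 10 at an unadjusted p under 0.05 or called by edgeR or DESeq2 in either. Fth1, the ferritin heavy chain, was at 1394 ± 147, 1466 ± 405 and 1531 ± 195 CPM, and Ftl1, the light chain, at 401 ± 60.5, 388 ± 58.0 and 384 ± 17.3 CPM.

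Ccr2, the receptor that brings monocytes out of the blood, had the largest SD relative to its mean of the 10 markers in unchallenged controls (85.9%), where library 1 stood apart. In challenged controls this was 49.7%, against 60.4% for Fcgr1, and in knockouts 37.9%, below Mrc1, Adgre1, Csf1r and Mertk (42.6% to 49.95%). Its levels were 61.2, 17.2 and 13.9 CPM in unchallenged controls, 79.2, 43.9 and 30.1 CPM in challenged controls, and 40.8, 23.7 and 20.8 CPM in challenged knockouts. Unchallenged control 1 lay above challenged controls 2 and 3. The log2 fold change was 0.73 with challenge (SE 0.56, adjusted p = 0.700). Leaving out challenged control 1 gave 0.27, and leaving out unchallenged control 1 gave 1.71. Knockouts differed by -0.84 (SE 0.56, adjusted p = 0.716), and -0.38 without challenged control 1. The log2 ratio of Ccr2 to Csf1r was -1.04, -2.63 and -2.46 in unchallenged controls, -1.18, -1.88 and -1.38 in challenged controls and -1.63, -1.32 and -1.48 in knockouts. Unchallenged control 1 was the highest of all 9 libraries in this ratio and the other two unchallenged controls were the lowest.

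The CCR2 ligand genes Ccl2 and Ccl7 were low in unchallenged controls and uneven under challenge. They and Ccl8 belong to the monocyte list and were named after their values were seen. Ccl2 had 1.36, 1.57 and 0.945 CPM in unchallenged controls, 141, 5.602 and 4.73 CPM in challenged controls and 9.89, 6.19 and 2.80 CPM in knockouts. Ccl7 was at 6.70, 3.25 and 1.68 CPM, then 307, 10.3 and 7.53 CPM, then 21.8, 8.61 and 2.80 CPM. In both, challenged control 1 exceeded every other library by more than 10 times, and challenged controls 2 and 3 were also above the unchallenged controls. Ccl8, another chemokine of this family, was more even, with 56.7, 18.6 and 12.3 CPM, then 132, 94.8 and 70.4 CPM, then 77.2, 34.7 and 21.7 CPM (log2 1.77 with challenge, SE 0.60, adjusted p = 0.237, and 0.0149 with the block). Reads of such related chemokine genes may have been split between them. The monocyte list thus holds chemokine ligand genes beside genes of monocytes, and its median is not a measure of monocytes alone. Of its 15 genes tested, 13 were above 0 with challenge (median 1.65) and 13 below 0 with genotype (median -1.10). An unadjusted p under 0.05 was found in 8 and 5, and 0 passed by edgeR. Genes that rose with challenge under the block included Ccl8, Plac8 and Spn, and DESeq2 called 5 with challenge and 2 with genotype. Plac8, a leukocyte gene high in classical monocytes, was at 340, 212 and 190 CPM, then 682, 526 and 739 CPM, then 293, 303 and 260 CPM, so that the challenged controls stood apart from both groups (log2 1.39 with challenge, SE 0.24, adjusted p = 0.0839, or 0.0275 under the block, and -1.19 with genotype, SE 0.24, adjusted p = 0.299). Plac8 stood above Ptprc in each group (Ptprc means of 30.2, 111 and 29.7 CPM), and which cells made Plac8 was not tested. Fn1, fibronectin, which stromal cells also make, was at 374 ± 58.6, 475 ± 55.9 and 294 ± 163 CPM (SD, n = 3).

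The early classical pathway genes beside C1q had a median of 0.17 with challenge, where the C1q chains had 0.48 to 0.74, a difference that was not tested. Of 9 tested, 7 were above 0 with challenge and 7 below 0 with genotype (median -0.37), with 1 and 2 at an unadjusted p under 0.05 and 0 past the edgeR threshold. C2, the protease cleaved by C1s, passed with the block and by DESeq2 and was named after its values were seen: it was at 5.90 ± 3.19, 18.9 ± 7.60 and 9.19 ± 0.821 CPM across the 3 groups (SD, n = 3; log2 1.68 with challenge, SE 0.40, adjusted p = 0.115, and 0.0414 with the block). C3, the protein on which the pathways converge, was at 523 ± 227, 896 ± 218 and 648 ± 277 CPM. Serping1, the C1 inhibitor, was at 455 ± 93.3, 474 ± 34.0 and 373 ± 97.3 CPM.

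The lists for activated macrophages were uneven between libraries, and their differences from the markers were not tested. The list called interferon activation also holds general inflammatory genes such as Il1b, Tnf and Ptgs2. All 13 of its tested genes were above 0 with challenge (median 3.72) and below 0 with genotype (median -2.59). Of these 13 and 11 had an unadjusted p under 0.05 and 0 passed by edgeR in either, while DESeq2 called 6 with challenge and 2 with genotype. The summed level of the 14 listed genes was 2944 CPM in challenged control 1 but 81.9 and 156 CPM in challenged controls 2 and 3, against 24.8 to 48.9 CPM in unchallenged controls and 89.0 to 158 CPM in knockouts. Cxcl10, a chemokine for T cells, was at 1059 CPM in challenged control 1, at 4.57 and 44.6 CPM in the other two, and at 0.421 to 1.57 CPM in unchallenged controls. In knockouts Cxcl10 was at 6.27, 63.8 and 19.3 CPM, all above challenged control 2 and 1 of them above challenged control 3. Socs3, a feedback inhibitor of cytokine signalling, was at 487, 27.7 and 21.3 CPM in challenged controls, 11.3 to 15.3 CPM in unchallenged controls and 33.05 to 38.0 CPM in knockouts. In the list for activation by IL-4 and IL-13, all 12 genes were above 0 with challenge (median 1.77) and 9 below 0 with genotype (median -0.63), with 5 and 2 at an unadjusted p under 0.05 and 0 past the edgeR threshold (5 higher by DESeq2 with challenge and 1 lower with genotype). Arg1, arginase 1, had 192, 77.2 and 123 CPM in unchallenged controls, 738, 260 and 311 CPM in challenged controls and 143, 151 and 130 CPM in knockouts, so that the challenged controls stood above both groups. Tgm2, a transglutaminase, was at 271 ± 45.8, 306 ± 23.6 and 315 ± 32.7 CPM (SD, n = 3). Over all 10 related lists, 114 genes other than the markers were tested: 87 were above 0 with challenge and 92 below 0 with genotype. None passed by edgeR in either comparison, 16 rose with challenge with the block over all 9 libraries, and DESeq2 called 23 higher and 1 lower with challenge and 5 lower with genotype.

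**Figure D4:**
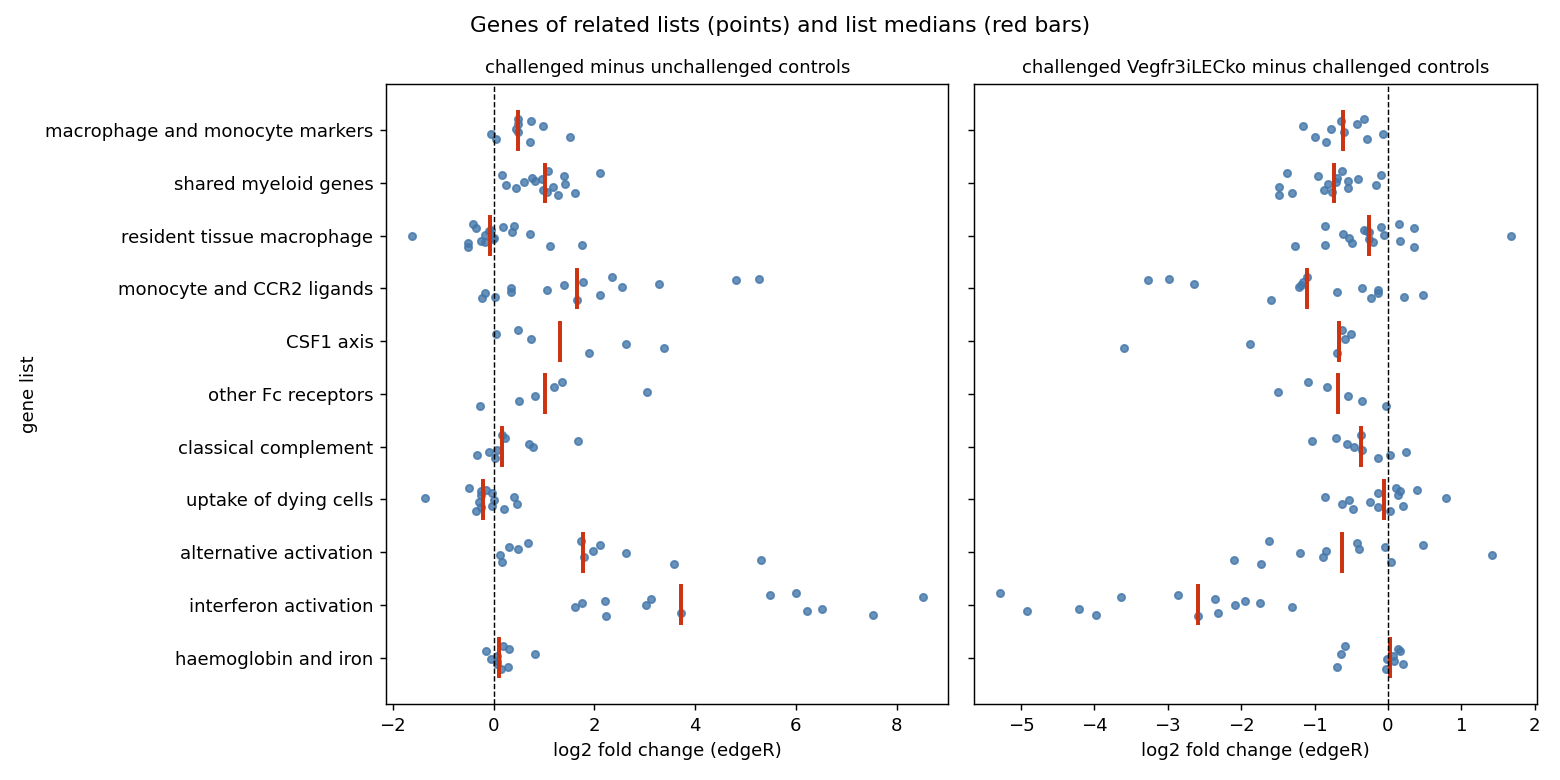
Fitted log2 fold changes (x axis) of the tested genes (points) of the markers and of 10 related lists (y axis), with list medians as red bars, for challenge in controls (left) and genotype under challenge (right); the 2 x axes have different ranges. List medians run from -0.20 (uptake of dying cells) to 3.72 (interferon activation) with challenge. The CSF1 axis list also holds GM-CSF and G-CSF genes, and the interferon activation list also holds general inflammatory genes.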

How the data were processed

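Messenger RNA libraries of 9 pools (3 per group, from the titles) were analysed from the authors' deposited table of raw counts per gene symbol. HISAT2, Bowtie2, DESeq2 and mm39 are named per the submitters' processing notes; the sources used here name no version, counting program, strand or annotation. No sample column was left unused. In R 4.3.3, genes were filtered by filterByExpr on the 3 groups, scaled by TMM and tested in 1 edgeR 4.0.16 quasi-likelihood fit of all 9 libraries (two-sided, Benjamini-Hochberg over 15613 genes, threshold 0.05; biological coefficient of variation 31.7%). SE is the log2 fold change over the root of F; intervals use its degrees of freedom. DESeq2 1.42.0, other scalings, no filter, a block, fewer groups and 9 fits that leave out 1 library were alternatives. The fit was tested on simulated data. Counts per library of 16490050 to 24746836 put the floor of 3 counts at 0.121 to 0.182 CPM, for counting error only.

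Deviations of same-numbered libraries from group means correlated across genes at 0.48, 0.27 and 0.53 between the control groups, so these were taken as paired, from the data and not the labels. No 2 libraries of a group agreed within counting noise. No set test was run. The markers and the 22 lists (3 listed symbols were not matched in the table) were chosen with earlier results of these data known. Named were all markers, Flt4, and per related list the genes that passed or else the 2 most abundant; Ptprc and genes so marked fall outside this rule. Lists of 12 other cell types served for the sums given. Lengths came from GENCODE M21, promoters from RefSeq.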

Additional observations from a re-analysis of the deposited data

How the results depend on the processing

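No marker passed with challenge in any of the 9 fits without 1 library (0 to 0), while 1 passed by DESeq2, 1 with the replicate block over all 9 libraries and 3 with the block in the 2 groups. All genes past the threshold with challenge were 10, but 753 by DESeq2, 20 without a filter, 267 and 476 with the block over all and over 2 groups, and 1 with only the 2 groups. They were 0 to 121 when 1 library was left out: 121 without unchallenged control 1, 0 without unchallenged control 2 or 3, 35 without challenged control 2, 1 without challenged control 3, 6 without knockout 1 and 5 without knockout 3. With genotype 0 genes passed, against 231 by DESeq2 and 22 with the block over all 9 libraries, and the third comparison had 0 against 14 by DESeq2; 0 markers were among them and both stayed at 0 in the fits without 1 library. The numbers were taken as pairs in the control groups only. Between challenged knockouts and challenged controls, same-numbered libraries correlated at 0.34, -0.17 and 0.35. Between challenged knockouts and unchallenged controls they correlated at 0.32, -0.09 and 0.37, so number 2 did not pair in either. The block over all 9 libraries still treats the knockouts as paired, and the main fit uses no pairing. The block changed no other call of a marker. Of the other-cell lists, Ighm and Jchain were lower with genotype under it, as was Ptprc outside the lists. Signs turned for Cd163 and Mertk with challenge, for Cd163 with genotype and for 6 markers in the third comparison, 0 of them past the threshold. With challenge Cd163 ran from -0.49 to 0.18 and Mertk from -0.18 to 0.31 without 1 library, with -0.0053 for Mertk under upper-quartile scaling. With genotype Cd163 ran from -0.29 to 0.37, with 0.0019 and 0.0033 under the block over all and over 2 groups. Between knockouts and unchallenged controls the ranges were -0.041 to 0.29 (C1qb), -0.63 to 0.085 (Adgre1), -0.58 to 0.16 (Mrc1), -0.33 to 0.045 (Cd163), -0.62 to 0.0014 (Mertk) and -0.46 to 0.87 (Ccr2, with 0.13 and 0.15 under the blocks). Of 160 marker values with challenge 147 kept sign and side of the threshold, 156 of 160 did with genotype and 145 of 160 in the third comparison. The cause of these changes was not tested. All 30 group means of the markers moved by less than 1 SD on total-count scaling. With 3 pools a group, the spread between pools and not counting error limits these results.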

Other observations

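By the distance used here, the profile of the C1q chains over the 9 libraries was closer to many genes outside the list than to the other macrophage markers. Likeness was the root mean square difference of centred log2 CPM over the 9 libraries from the mean of C1qa, C1qb and C1qc, among 14154 other genes with a mean of at least 1 CPM. The closest were Akirin1 (0.074), Glt28d2 (0.091), Ap3s1 (0.099), Stx3 (0.10) and Nin (0.12), against a median of 0.43 over those genes. Akirin1, which encodes a nuclear protein, had levels of 109, 99.7 and 102 CPM in the 3 unchallenged libraries, 186, 143 and 130 CPM in challenged controls and 113, 106 and 127 CPM in challenged knockouts. The chains themselves, which make up that mean, were at 0.035 (C1qc), 0.19 (C1qb) and 0.19 (C1qa). Even so, 226 of the 14154 other genes were closer than C1qb and 242 closer than C1qa. The other 7 markers were at 0.41 (Mertk) to 0.62 (Ccr2), farther than a gene with no variation at all would be (0.28). Closer than Mertk were 6298 of the 14154 other genes, and closer than Ccr2 were 11056. The distance counts the size of swings as well as their direction. A marker that moved with the chains but more widely would thus also lie far, and whether these markers did so was not tested. These are descriptions of 9 libraries chosen from many genes, with no test.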
